A study of Mus musculus with 2 samples.

Results

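Lysosomes are acidic compartments in which macrophages break down engulfed cells, matrix and lipid. Soluble hydrolases cut proteins, glycans and lipids inside them, membrane proteins line the compartment and carry products out, and a rotary proton pump (the vacuolar ATPase) acidifies it. The pump couples ATP splitting in its cytosolic V1 sector to proton transport through its membrane V0 sector. Some lysosomal genes carry an E-box of the CLEAR type, the element bound by the transcription factor TFEB. In an infarct, macrophages clear dead cardiomyocytes through this system.

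The genes described are 49 lysosomal genes, matched by symbol to the 23284 genes of the authors' deposited table. They are 31 genes of hydrolases, membrane proteins, lipid carriers and regulators and 18 genes of proton pump subunits and accessory proteins, and cathepsins were left out. All 49 symbols were found, each once. The set is wider than its name, since Tfeb is a transcription factor and Lamp1, Lamp2, Cd63 and Scarb2 encode membrane proteins.

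RNA was sequenced from macrophages sorted from the infarcted hearts of C57BL/6 mice 3 days after their left anterior descending coronary artery was tied. The series has 2 libraries, 1 of Ly6Clo macrophages and 1 of Ly6Chi macrophages. Ly6C marks the surface of inflammatory monocytes and of macrophages that recently arose from them. The labels name no transgene, and they do not say whether cells of several hearts were pooled. The study set out to compare gene expression between them.

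The measurement for each gene is a signed comparison statistic and the rank of its size, as the authors deposited them. The statistic is a score with no stated unit or direction, so no sign could be given to a population, and it is not read as a fold change. Values are given by side, negative or positive. Ly6c2, which encodes Ly6C antigen, had -1.78 at rank 18 in the authors' deposited table and is given only to mark where the negative side lies. Columns with values of each library bear codes that fit neither sample label and were not used, so levels, depth and counting error are unknown here. With 1 library per population no test was possible, and every count below is a description of these libraries.

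Most lysosomal genes lay on the negative side. Of the 49 members, 41 (83.7%) were negative in the authors' deposited table, against 42.3% of the 16302 genes with a value other than 0. The members' median statistic was -0.259, computed from the authors' deposited table, against 0.00512 over those genes. At a size of 0.5 or more, a round threshold with no error rate, 8 of 49 members (16.3%) were negative, against 0.988% of all genes in the authors' deposited table. On the positive side 2 of 49 members (4.08%) reached 0.5, against 3.77% of all genes in the authors' deposited table. A lower threshold of 0.25 took in 25 negative members against 4.66% of all genes, and 3 positive members against 9.9% of all genes, in the authors' deposited table. At 1 there were 0 members on either side, against 0.0644% of all genes on the negative and 0.709% on the positive side of the authors' deposited table. The shares of all genes at these thresholds count 6982 genes at 0 in their base, while no member was at 0. At 0.5 the share of members was thus above the background on the negative side and near it on the positive side.

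The members past the threshold come from several steps of lysosomal work. On the negative side they are Lgmn, Psap, Gla, Npc1, Atp6v1h, Atp6v1c1, Atp6v1a and Lamp1. On the positive side they are Arsb and Atp6v0d2. The median rank of the members by size was 2527, computed from the authors' deposited table, against 11642.5 over all genes. The latter includes 6982 genes at 0, while no member was at 0.

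**Figure D1:**
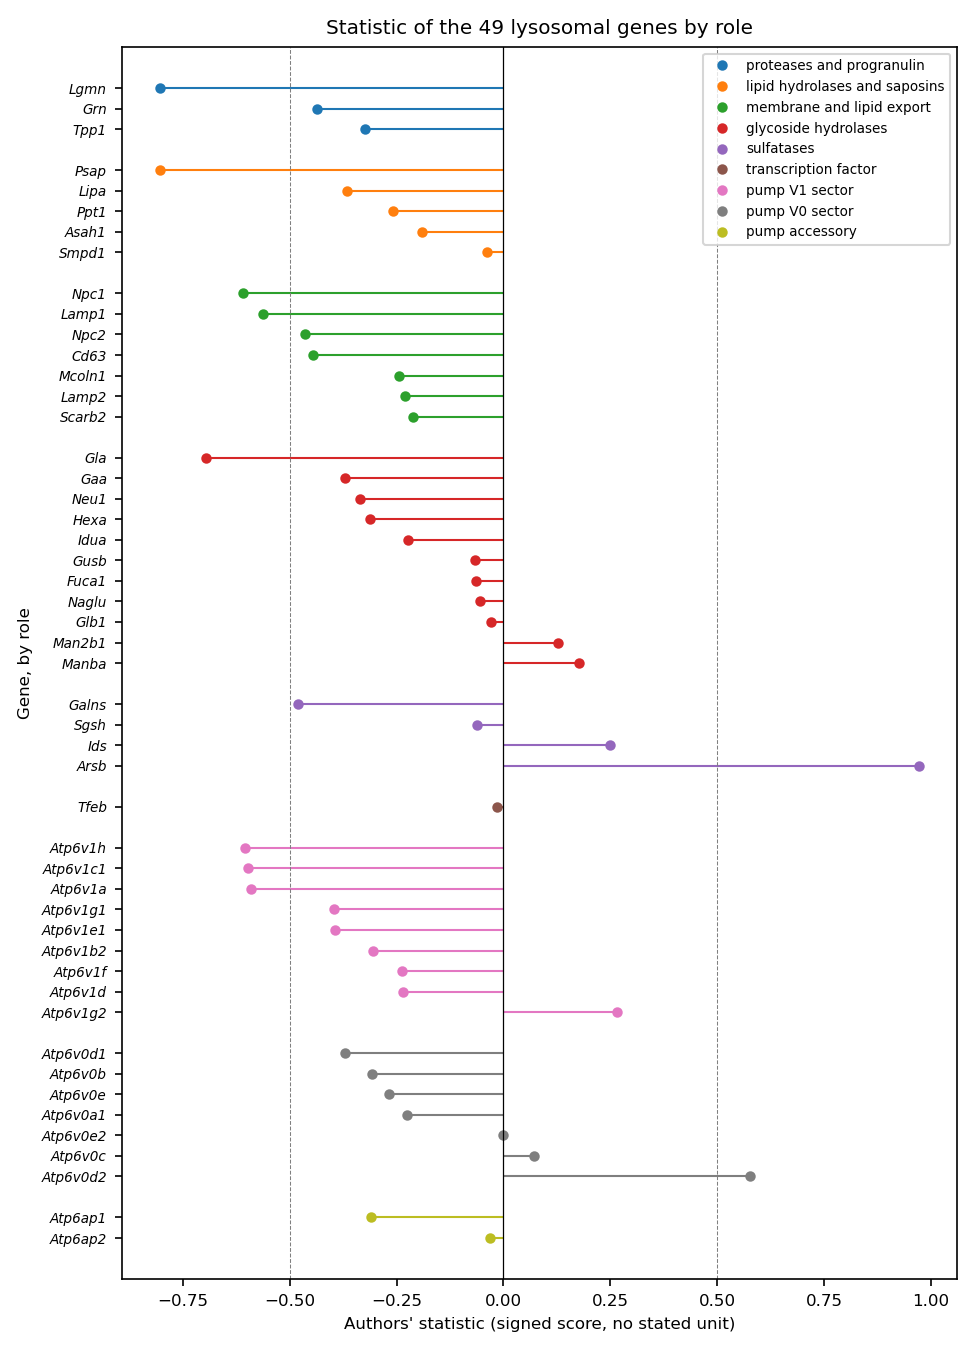
The authors' statistic of each of the 49 members is drawn as a point with a line from 0, grouped by role; dashed lines mark a size of 0.5. Points run from -0.805 for Lgmn to 0.972 for Arsb, and 41 of 49 lie left of 0.

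**Figure D2:**
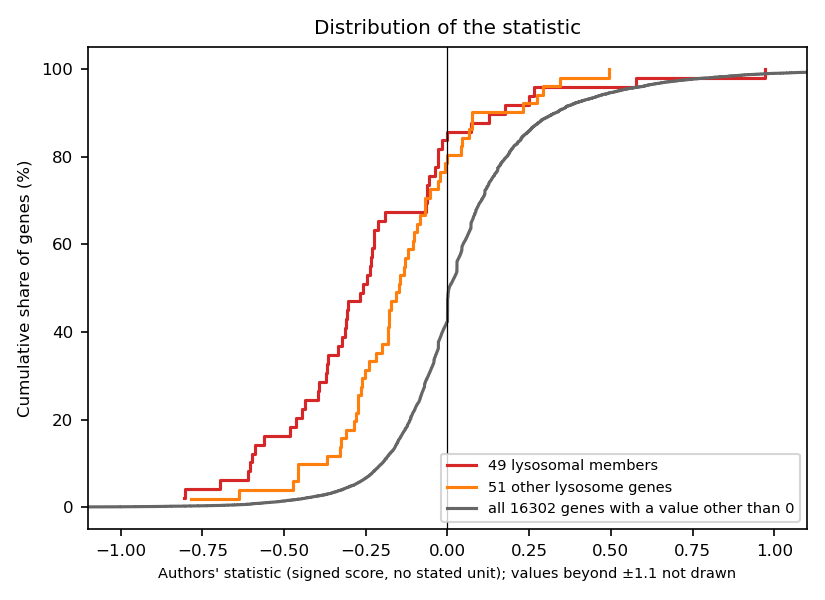
Cumulative share of genes (vertical axis, percent) by the authors' statistic (horizontal axis) for the members, for other lysosome genes and for all genes with a value other than 0. The members' curve lies left of that of all genes over most of its range, with medians of -0.259 and 0.00512.

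The proteases and progranulin were all negative. Lgmn encodes legumain, which cuts proteins after asparagine and activates other lysosomal proteases. It lies on chromosome 12 from 102394082 to 102439728 and had -0.805 at rank 369 in the authors' deposited table, the lowest value of all members. Grn encodes progranulin, a secreted and lysosomal glycoprotein, and had -0.436 in the authors' deposited table. Tpp1, an enzyme that removes tripeptides from protein ends, had -0.324 in the authors' deposited table. The gap between Lgmn and the other two was wider than that between Grn and Tpp1.

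All 5 genes of lipid hydrolysis were negative, with a wide range. Psap encodes prosaposin, which is cut into the saposins that present sphingolipids to their hydrolases. It lies on chromosome 10 from 60277628 to 60302600 and had -0.803 at rank 372 in the authors' deposited table. Lipa, the acid lipase that splits cholesteryl esters and triglycerides, had -0.366 in the authors' deposited table, and Ppt1, which removes palmitate from proteins, had -0.259. The sphingolipid enzymes were nearer 0. Asah1, the acid ceramidase gene, had -0.191, and Smpd1, the acid sphingomyelinase gene, had -0.0374 in the authors' deposited table.

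The membrane and lipid export genes were negative in 7 of 7 cases, with a median of -0.445 computed from the authors' deposited table. Npc1 and Npc2 together hand cholesterol out of the lysosome. Npc1, the membrane transporter of the pair, lies on chromosome 18 from 12189694 to 12236506 and had -0.610 at rank 724 in the authors' deposited table. Npc2, the soluble carrier that loads it, had -0.464 in the authors' deposited table. Among the coat proteins, Lamp1, on chromosome 8 from 13159161 to 13175338, had -0.562 at rank 881 in the authors' deposited table, and its relative Lamp2, which also serves chaperone-mediated autophagy, had -0.230. The tetraspanin gene Cd63 had -0.445 in the authors' deposited table. Nearer to 0 were Mcoln1, a calcium channel of the lysosomal membrane, at -0.245 and Scarb2, the carrier of glucocerebrosidase, at -0.212 in the authors' deposited table. RefSeq lists 1 pseudogene named after Cd63, and how the authors' counting treated reads shared with it is not given.

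The 11 glycoside hydrolases were less uniform. Of these, 9 were negative and 2 positive, with a median of -0.0655 computed from the authors' deposited table. Gla encodes alpha-galactosidase A, which trims globotriaosylceramide, and lies on the X chromosome from 134588169 to 134601005. It had -0.696 at rank 517 in the authors' deposited table and was the only member of this group past 0.5. Next came Gaa, which degrades glycogen, at -0.370, the sialidase gene Neu1 at -0.336, and Hexa, which encodes the alpha subunit of beta-hexosaminidase, at -0.313 in the authors' deposited table. Idua, which removes iduronic acid from glycosaminoglycans, had -0.224 in the authors' deposited table. The remaining negative genes, the beta-glucuronidase gene Gusb, the fucosidase gene Fuca1, the heparan sulfate enzyme gene Naglu and the beta-galactosidase gene Glb1, lay between -0.0655 and -0.0290 in the authors' deposited table. Both mannosidase genes were positive, Manba at 0.176 and Man2b1 at 0.129 in the authors' deposited table.

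The 4 sulfatase genes divided evenly. Arsb encodes arylsulfatase B, which removes sulfate from dermatan and chondroitin sulfate, and lies on chromosome 13 from 93771679 to 93943016. Its statistic of 0.972 at rank 204 in the authors' deposited table was the largest in size among all 49 members. Ids, which acts on iduronate sulfate in heparan and dermatan sulfate, had 0.248 in the authors' deposited table. Galns, which desulfates keratan and chondroitin sulfate, had -0.481 and Sgsh, a heparan sulfate enzyme gene, had -0.0623 in the authors' deposited table. Enzymes that work on the same class of glycosaminoglycan therefore had values on both sides.

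The V1 sector of the proton pump was negative in 8 of 9 subunit genes, with a median of -0.393 computed from the authors' deposited table. The A subunit gene Atp6v1a, whose protein holds the ATP-splitting sites, lies on chromosome 16 from 44085402 to 44139702 and had -0.590 at rank 800 in the authors' deposited table. Atp6v1h, on chromosome 1 from 5082978 to 5163213, and Atp6v1c1, on chromosome 15 from 38661904 to 38692444, encode subunits at the junction with V0. They had -0.605 and -0.598 at ranks 744 and 769 in the authors' deposited table. All 3 of these genes lay between -0.605 and -0.590.

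The other V1 subunits had smaller negative values. The stalk genes were close, Atp6v1g1 at -0.396 and Atp6v1e1 at -0.393 in the authors' deposited table. The B subunit gene Atp6v1b2, whose protein alternates with the A subunit in the ring, had -0.306 in the authors' deposited table. The central rotor genes were Atp6v1f at -0.237 and Atp6v1d at -0.235 in the authors' deposited table. The 2 stalk genes were alike in value, as were the 2 rotor genes, while the A and B subunit genes of the ring were further apart.

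The V0 sector was more divided, with 4 negative and 3 positive genes and a median of -0.225 computed from the authors' deposited table. The negative genes lay in a narrow band. Atp6v0d1, whose protein links the rotor to the membrane ring, had -0.370, Atp6v0b, a ring subunit gene, had -0.308, Atp6v0e had -0.267 and Atp6v0a1, whose protein forms the proton path, stood at -0.225 in the authors' deposited table. Of the accessory proteins, Atp6ap1 had -0.311 and Atp6ap2, which encodes the prorenin receptor, stood at -0.0304 in the authors' deposited table.

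Of the 4 positive pump genes, 3 were second isoforms of a subunit. Atp6v0d2, the d subunit isoform known from osteoclasts and macrophages, lies on chromosome 4 from 19876838 to 19922566. It had 0.577 at rank 832, against -0.370 for Atp6v0d1, in the authors' deposited table. Atp6v1g2, an isoform best known from neurons, had 0.266 against -0.396 for Atp6v1g1 in the authors' deposited table. Atp6v0e2 had 2.42e-06 against -0.267 for Atp6v0e in the authors' deposited table. The d and G pairs thus lay on opposite sides of 0, while Atp6v0e2 was in effect at 0, and no test of the difference was possible. Isoforms outside the member list were named after their values were seen. Atp6v1c2 at -0.0703, a value held by 63 genes, and Atp6v0a2 at -0.0234 lay on the side of the first in the authors' deposited table. Atp6v0a4, Atp6v1b1, Atp6v1e2 and Atp6v1g3 were at 0 or almost so.

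Of the positive pump values, 3 are shared with other genes. The value of Atp6v0e2, the smallest positive value in use, is held by 841 genes in the authors' deposited table. Atp6v0c, the main ring subunit gene, had 0.0719, a value held by 192 genes in the authors' deposited table, and that of Atp6v1g2 is held by 2. RefSeq lists 2 pseudogenes named after Atp6v0c, of which 1 has its own entry in the authors' deposited table. How reads shared between these copies were counted is not given in the sources used here.

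Tfeb, which encodes the transcription factor that binds CLEAR elements, stood near 0. Its statistic was -0.0156 at rank 14409 in the authors' deposited table. Among the members, only Atp6v0e2 was nearer to 0. RNA level says nothing of the protein's location, by which TFEB is mainly controlled.

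RefSeq promoter windows (GRCm38.p6, the assembly of mm10) were read for the members, each running from 250 bases before a transcript start to 50 after it. Entries were found for 41 of the 49 genes. There was none for Npc1, Asah1, Galns, Atp6v0d2, Atp6v1b2, Atp6v1c1, Atp6v1g1 and Atp6v1h. The E-box core CACGTG, which reads the same on both strands, was present in at least 1 window of 12 of the 41 members, or 29.3%. It was present in 10.9% of the 11333 genes with an entry and a statistic other than 0. Counted by window, the core was in 12 of 48 member windows and in 7.15% of all 32851 windows. GC content was taken as the mean over the windows of each gene. Its median was 56.3% for the members, 59.7% for the 11333 genes and 56.7% for all 15707 genes of the deposited table with an entry. Any part of base composition in the share with a core was not tested.

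The longer form TCACGTG, searched on both strands and containing the core, was found in the same number of members, 12 of 41. It was in 4.29% of all 27025 genes with an entry, and the core was in 8.09% of those same genes. All 18 member matches to the core had a T before it or an A after it, and 6 had both. The full palindrome, with GT before the core and AC after it, was in 0 of 48 member windows and in 0.326% of all windows. A match here describes letters in a window and is not evidence of binding.

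The promoter of Lamp1 held 4 cores, the most of any member. Among genes of the deposited table with an entry, 5 of 15707 had 4 or more cores in a window. The promoter of Gla held 2, and that of Arsb, the member with the largest positive value, held none. Psap, at -0.803, had an entry and held none either. Sgsh, Naglu and Glb1 each held 1 core and lay near 0, between -0.0623 and -0.0290. The 250 bases before the start are shown for Lamp1, Gla and Arsb, 5′ to 3′ on the gene's own strand, with the core in capitals. The stretches lie at chr8:13158911-13159160 (plus strand) for Lamp1, chrX:134601006-134601255 (minus strand) for Gla and chr13:93771429-93771678 (plus strand) for Arsb.
Lamp1: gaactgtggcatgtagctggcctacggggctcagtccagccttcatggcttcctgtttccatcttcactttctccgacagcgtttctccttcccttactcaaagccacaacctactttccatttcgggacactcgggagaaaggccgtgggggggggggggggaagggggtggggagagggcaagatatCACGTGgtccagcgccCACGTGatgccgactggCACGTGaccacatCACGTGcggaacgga
Gla: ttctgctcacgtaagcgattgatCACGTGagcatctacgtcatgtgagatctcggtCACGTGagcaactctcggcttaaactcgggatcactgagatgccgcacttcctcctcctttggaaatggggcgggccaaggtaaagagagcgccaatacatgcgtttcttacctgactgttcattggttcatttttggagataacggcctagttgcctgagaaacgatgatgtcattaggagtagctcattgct
Arsb: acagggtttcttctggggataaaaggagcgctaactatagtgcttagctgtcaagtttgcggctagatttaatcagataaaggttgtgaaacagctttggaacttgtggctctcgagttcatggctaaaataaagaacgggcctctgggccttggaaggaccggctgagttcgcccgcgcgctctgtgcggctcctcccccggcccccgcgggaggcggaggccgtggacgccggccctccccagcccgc

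In Lamp1 the cores began 61, 45, 28 and 15 bases before the start, a cluster next to it. In Gla they began 227 and 194 bases before the start. Shorter stretches of 30 bases around the core are shown for the other members whose core lay wholly upstream, with 12 bases on either side, again with the core in capitals. They allow the bases next to the core to be compared. In Lgmn and Atp6v1a the core lies before a start inside the span of the gene.
Lgmn (chr12:102439124-102439153, minus strand): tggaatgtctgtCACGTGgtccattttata
Atp6v1a (chr16:44139373-44139402, minus strand): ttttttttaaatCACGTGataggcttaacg
Gaa (chr11:119267811-119267840, plus strand): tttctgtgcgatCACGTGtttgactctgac
Atp6v0b (chr4:117887348-117887377, minus strand): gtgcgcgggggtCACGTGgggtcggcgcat
Atp6v0b (chr4:117887330-117887359, minus strand): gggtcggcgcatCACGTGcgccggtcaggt
Mcoln1 (chr8:3500436-3500465, plus strand): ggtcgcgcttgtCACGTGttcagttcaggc
Mcoln1 (chr8:3500462-3500491, plus strand): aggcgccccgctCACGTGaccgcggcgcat
Sgsh (chr11:119355522-119355551, minus strand): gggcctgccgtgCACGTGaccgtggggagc
Naglu (chr11:101070009-101070038, plus strand): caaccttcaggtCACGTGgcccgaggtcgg
Glb1 (chr9:114401018-114401047, plus strand): ctgcttctgagtCACGTGgcctacagaggc

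The remaining matches touched the start itself. In Atp6v0d1 the core began 3 bases before it, and in Atp6v0e it began 3 bases after the first transcribed base. Of the 18 matches, 13 began within 100 bases upstream of the start.

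**Figure D3:**
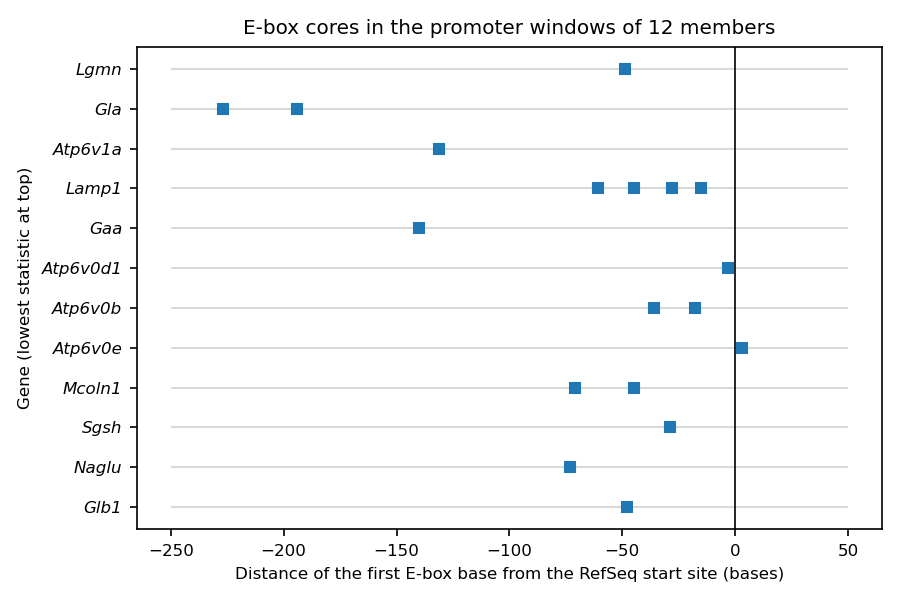
Distance in bases from the RefSeq start site (horizontal axis) of each E-box core in the windows of 12 members, ordered by statistic with the lowest at the top; grey lines show the window searched. Lamp1 has 4 cores, Gla, Atp6v0b and Mcoln1 have 2 each, and 13 of 18 begin within 100 bases upstream.

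The members with an E-box core were all on the negative side. All 12 of 12 were negative in the authors' deposited table, from Lgmn at -0.805 to Glb1 at -0.0290, with a median of -0.339. Of the 29 members with an entry and no core, 22 were negative and 7 positive, with a median of -0.225 computed from the authors' deposited table. The 8 members without an entry had a median of -0.439, computed from the authors' deposited table, and 7 of them were negative. Over all genes with an entry and a value other than 0, 50.7% of the 1237 genes with a core and 41.8% of the 10096 genes without one were negative in the authors' deposited table. The ranges of the members with and without a core overlapped, and the difference was not tested.

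**Figure D4:**
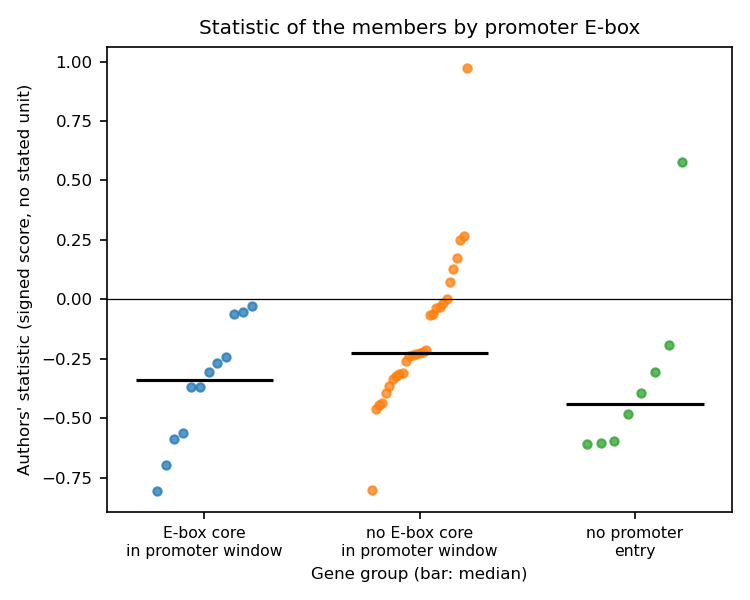
The authors' statistic (vertical axis) of members with an E-box core in a promoter window, members without one and members with no promoter entry; each point is a gene and each bar a median. The 12 genes with a core all lie below 0, with a median of -0.339 against -0.225 for the 29 without.

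Other lysosome genes, which are not members, also lay mostly on the negative side but nearer 0. Of 57 such genes, 54 were found. Of the 51 with a value other than 0, 40 were negative (78.4%), against 42.3% of all genes with such a value. Their median was -0.148, computed from the authors' deposited table. At a size of 0.5 or more, 2 of 54 (3.70%) were negative, against 0.988% of all genes in the authors' deposited table. On the positive side 0 reached that size, against 3.77% of all genes. Both negative genes serve the mannose 6-phosphate route that delivers hydrolases to lysosomes. Igf2r, the receptor for the tag, had -0.785 and Gnptab, which encodes the enzyme that starts the tag, had -0.638 in the authors' deposited table. Other genes of this route were chosen after their values were seen. The smaller tag receptor gene M6pr and Gnptg each had -0.181, and Nagpa was positive at 0.0665, in the authors' deposited table.

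Relatives of members outside the member list lay on both sides, and those named here were chosen after their values were seen. Tcirg1, the a subunit isoform of osteoclasts, had -0.174 in the authors' deposited table, against -0.225 for Atp6v0a1. Naaa, an acid amidase gene related to Asah1, had the highest value of the list, 0.495, in the authors' deposited table.

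Markers of cell types that a sorted population could hold also lay on one side or the other. Of 11 macrophage markers, 9 were negative, with a range from -0.786 to 0.248 and a median of -0.245 computed from the authors' deposited table. All 10 dendritic cell markers were positive, from 0.237 to 2.84, and all 10 fibroblast markers were positive, from 0.225 to 2.14, in the authors' deposited table. Of the 8 neutrophil markers with a value other than 0, 7 were positive, the highest at 0.544, in the authors' deposited table. The exception, Mmp8, had -0.998, the largest value in size among them. Of the 10 endothelial markers, 7 were negative, with a range from -0.569 to 0.425 in the authors' deposited table. Most lysosomal genes thus lay on the side of most macrophage and endothelial markers and opposite the dendritic cell and fibroblast markers. The part of these cell types in the lysosomal values was not tested. In bulk RNA, fewer cells of a type and less RNA per cell cannot be told apart.

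**Figure D5:**
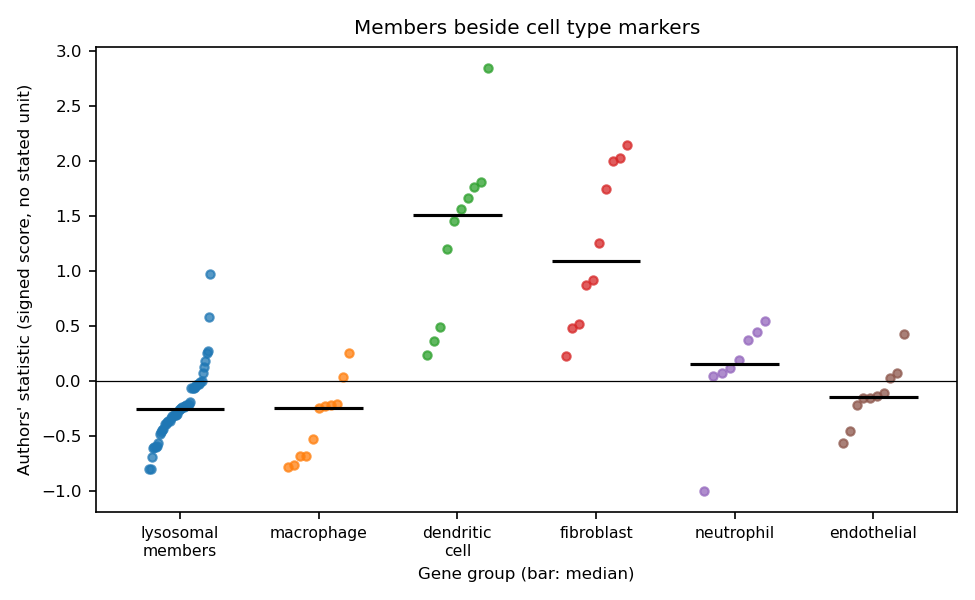
The authors' statistic (vertical axis) of the 49 members beside markers of macrophages, dendritic cells, fibroblasts, neutrophils and endothelial cells; each point is a gene with a value other than 0 and each bar a median. Members and macrophage markers have medians of -0.259 and -0.245, while all dendritic cell and fibroblast markers lie above 0.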

How the data were processed

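RNA of 1 Ly6Clo and 1 Ly6Chi macrophage library was sequenced. The tools named by the submitters' processing notes are TopHat and CASAVA 1.8.2, and the build is mm10. How reads were counted, on which annotation and strand, and how the statistic was made is not given in the sources used. The authors deposited a signed score per gene that compares the libraries and, per the file headers, its ranking. Ranking the scores by size gave the deposited rank for 23284 of 23284 genes within 1e-06. The 2 columns of values per library matched no sample label and were not used, so depth, levels and replicate error could not be given.

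The members, lists and promoter motifs were chosen with earlier results of these data known. All members of size 0.5 or more, the extremes of each role group and the isoform pairs were named with values, and other members in groups. Counts and medians were set beside those of all genes, and medians left out genes at 0. Motifs were searched in RefSeq windows (GRCm38.p6). Both computations were tested on simulated data. Alternatives were the mean, other thresholds, members at 0, pump or other genes alone, and longer motifs. Planned protein comparisons were not made, so pairs of isoforms were compared by score alone. The software was Python 3.11.15 with pandas 2.3.3, NumPy 2.4.6, Matplotlib 3.10.9 and SciPy 1.17.1.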

Additional observations from a re-analysis of the deposited data

How the results depend on the processing

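No paired analysis was possible because there is a single library of each population, and for the same reason none could be left out. The members' median of -0.259 stayed negative with the mean (-0.227), without the pump (-0.245) and for the pump alone (-0.286). It was also -0.286 without the 3 members whose value is shared with other genes, an alternative chosen after seeing the data. The count of negative members at the threshold moved with it by construction, from 8 at 0.5 to 25 at 0.25 and 0 at 1, and the positive count from 2 to 3 and 0. At 0.25 the background was 4.66% of all genes on the negative side and 9.9% on the positive side, and at 1 it was 0.0644% and 0.709%. No member was at 0, so including such members could change nothing. At a size of 0.1 or more, 33 of 39 members were negative (84.6%), against 42.3% of the 8598 genes of that size. The share of members with the core, 29.3%, was the same for TCACGTG and 0 for the core with GT before it and AC after it.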

Other observations

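Genes of nutrient sensing at the lysosomal surface, which control the TFEB family, were grouped with Mitf and Tfe3 of that family. The grouping was made after their values were seen. Of these 9 genes, 8 were negative, some of them close to 0, against 42.3% of all genes with a value other than 0. Flcn, a regulator of the Rag GTPases, had -0.330, Rragc had -0.312, Rraga had -0.239 and Rragd had -0.0299 in the authors' deposited table. Slc38a9, an arginine sensor of the lysosomal membrane, stood apart at 0.292 in the authors' deposited table. The Ragulator scaffold genes followed, Lamtor3 at -0.145 and Lamtor2 at -0.00712 in the authors' deposited table. The TFEB relatives Mitf and Tfe3 had -0.101 and -0.0544 in the authors' deposited table, and like Tfeb they were small in size.

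Of the pump isoforms outside the member list, 4 were at 0 or almost so. Atp6v1b1, Atp6v1e2 and Atp6v1g3 are listed at 0, and Atp6v0a4, an isoform of kidney, had 2.42e-06 in the authors' deposited table. Acp5, the acid phosphatase gene used as an osteoclast marker, was chosen after its value was seen. It lay on the positive side with Atp6v0d2, at 0.346 in the authors' deposited table. Tcirg1, the a subunit isoform of osteoclasts, lay on the negative side, at -0.174.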
